A study of Mus musculus with 3 samples.

Results

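The B cell identity genes described here are 9 genes, Ms4a1, Cd79a, Cd79b, Pax5, Blk, Fcrla, Fcmr, Fcer2a and Spib, of 24346 gene symbols measured. They were chosen by name, as B cell genes whose value was highest in the dendritic cell library, so their excess there is a description and carries no test. RNA sequencing was done on colonic myeloid cells sorted from healthy mice of strain BALB/c. There was 1 library for each of 3 populations. CD64- dendritic cells make up the DC sort, CD64+ macrophages the macrophage sort, and Gr-1+ CD11b+ leukocytes, labelled as neutrophil and monocyte, the Gr-1+ sort. CD64 binds IgG with high affinity, CD11b is an integrin chain of myeloid cells, and Gr-1 is carried by Ly6 proteins. The age and number of the mice, any pooling of them and the remaining gates of the sort are not given in the sources used here. With 1 library per population, no difference has a replicate check, and no p-value is given.

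B cells recognise antigen through a surface immunoglobulin that signals only with CD79A and CD79B, the products of Cd79a and Cd79b. The factor PAX5 holds cells in the B lineage, and SPIB, a relative of PU.1, acts in B cells and also in plasmacytoid dendritic cells and intestinal M cells. Ms4a1 encodes CD20, a surface protein of mature B cells, and Blk encodes a Src family kinase that acts below the receptor. Fcmr encodes the receptor for the constant part of IgM and Fcer2a encodes CD23, the low-affinity IgE receptor, which follicular dendritic cells can also carry. Fcrla encodes an intracellular protein of B cells that is related to Fc receptors. The colon wall holds B cells in lymphoid patches and follicles.

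Values are FPKM, fragment numbers normalised to transcript length and to library total. Differences were taken between log2(FPKM + 1) values, a scale that compresses the change of low genes. The size rule for calling a gene higher was a difference of at least 2 with at least 10 FPKM in the higher library. Across 17329 genes that reached 1 FPKM in at least 1 library, 1.53% were called higher in the DC sort than in the macrophage sort and 6.28% higher in the DC sort than in the Gr-1+ sort. A background level was taken from 1452 olfactory and vomeronasal receptor genes, whose 95th percentile was 0.611 FPKM in the DC sort, 3.24 in the macrophage sort and 9.69 in the Gr-1+ sort. Values at or under it are given but not read as expression. Estimated depths of the DC and macrophage libraries were 3.64 and 2.73 times that of the Gr-1+ library.

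Macrophage and neutrophil markers followed the labels, and dendritic cell markers did so in part. Of 15 macrophage markers, 14 were called higher in the macrophage sort than in the DC sort, and 12 of 12 neutrophil markers were higher in the Gr-1+ sort than in the DC sort. Among 15 markers of conventional dendritic cells, 3 exceeded their macrophage level by the size rule and 0 fell below it, or 2 and 1 (Naaa) with median-ratio scaling. Their values were higher in the DC sort for 10 of the 15 and lower for 5, Batf3, Xcr1, Clec10a, Cadm1 and Naaa. The 3 called were Flt3, Ccr7 and Kit. Flt3, the growth factor receptor of dendritic cells, was at 39.9, 5.42 and 2.52 FPKM in the DC, macrophage and Gr-1+ sorts. Ccr7 was at 1004, 107 and 27.5 FPKM, and Kit at 16.2, 3.03 and 4.78. The list summed to 1458 FPKM in the DC sort and 582 in the macrophage sort, and to 454 and 475 without Ccr7. The subset markers Xcr1 and Clec9a were low in the DC sort, at 2.83 and 2.81 FPKM. The DC library thus held Flt3 and the 9 B cell genes side by side.

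All 9 genes lie in annotated protein-coding loci (GRCm38), 2 of them on chromosome 7 and 2 on chromosome 1. Cd79a spans chr7:24897381-24902197 on the plus strand and Spib chr7:44525993-44532071 on the minus strand. Fcmr spans chr1:130865669-130880791 on the plus strand and Fcrla chr1:170917576-170927583 on the minus strand. The longest span is that of Pax5, 186 kb at chr4:44524757-44710487, and the shortest that of Cd79b, 3.42 kb at chr11:106311341-106314762, both on the minus strand. Also on the minus strand are Ms4a1 at chr19:11249675-11266241, Blk at chr14:63372836-63417037 and Fcer2a at chr8:3681737-3694175. In all, 7 of the 9 genes are on the minus strand. An antisense gene, 4930526L06Rik, overlaps Ms4a1 and was at 0.137, 1.45 and 6.36 FPKM in the DC, macrophage and Gr-1+ sorts. No source used here states that counting used strand, so the Ms4a1 value in the Gr-1+ sort, 8.77 FPKM, cannot be told apart from antisense signal. Pax5 is overlapped by 5730488B01Rik, at 2.52 FPKM in the DC sort and listed at 0 in the others, and Fcrla by the pseudogene Gm2962.

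Start-site sequences are shown for 4 of the genes, picked with their motif matches known. SPIB and its relative PU.1 bind a core written GAGGAA, and 3 of the 4 hold it. The windows of Fcer2a and Pax5 do not hold it and are not shown, though Fcer2a was above Spib in the DC sort. RefSeq (GRCm38.p6) start sites were matched for 6 genes, Cd79a, Fcer2a, Fcmr, Fcrla, Pax5 and Spib. Ms4a1, Cd79b and Blk had no entry. Each window runs from 250 bases before the start to 50 after it, printed 5′ to 3′ along the gene's strand, and capitals mark the core, here read on the opposite strand as TTCCTC. The windows are chr7:24897247-24897546 (plus strand) for Cd79a, chr1:170927534-170927833 (minus) for Fcrla, chr1:130865527-130865826 (plus) for Fcmr and chr7:44532022-44532321 (minus) for Spib.
Cd79a: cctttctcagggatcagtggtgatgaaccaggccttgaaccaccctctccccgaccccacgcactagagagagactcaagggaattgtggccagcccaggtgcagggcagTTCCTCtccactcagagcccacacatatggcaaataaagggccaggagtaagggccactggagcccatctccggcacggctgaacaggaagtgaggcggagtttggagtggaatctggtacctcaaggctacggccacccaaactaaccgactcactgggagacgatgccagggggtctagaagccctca
Fcrla: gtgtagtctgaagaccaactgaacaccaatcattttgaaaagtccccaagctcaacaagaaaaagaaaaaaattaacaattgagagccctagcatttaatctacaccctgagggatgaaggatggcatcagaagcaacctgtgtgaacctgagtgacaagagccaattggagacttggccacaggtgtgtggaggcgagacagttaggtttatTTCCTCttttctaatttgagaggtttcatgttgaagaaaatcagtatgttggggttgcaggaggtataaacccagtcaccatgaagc
Fcmr: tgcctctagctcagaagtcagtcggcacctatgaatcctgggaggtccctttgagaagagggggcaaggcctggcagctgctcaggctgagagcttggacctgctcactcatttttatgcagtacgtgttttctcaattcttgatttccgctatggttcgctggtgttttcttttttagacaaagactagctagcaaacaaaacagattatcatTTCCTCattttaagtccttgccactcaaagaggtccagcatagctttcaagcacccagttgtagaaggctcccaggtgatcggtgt
Spib: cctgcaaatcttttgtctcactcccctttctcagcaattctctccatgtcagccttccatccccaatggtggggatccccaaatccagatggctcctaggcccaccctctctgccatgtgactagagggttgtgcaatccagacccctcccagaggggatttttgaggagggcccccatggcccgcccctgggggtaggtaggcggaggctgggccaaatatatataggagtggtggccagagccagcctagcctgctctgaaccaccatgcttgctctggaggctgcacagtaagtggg

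The core stood 140 bases before the RefSeq start in Cd79a, 37 in Fcrla and 36 in Fcmr, counted to its first printed base. In Cd79a and Fcmr that start lies inside the gene span given above, and in Fcmr the core does too. Searched on both strands, GAGGAA occurred in the windows of 3 of 6 genes and in 28.3% of 32851 RefSeq start windows, so a match is common. The 6 genes had 8 windows, 3 of them of Fcer2a, and a gene was counted if any of its windows matched. Shares over all are per single window, so the counts per gene are not a like measure. The octamer ATGCAAAT, read by the Oct factors of B cells, was in 0 of 6 and in 1.74% of all windows. The E box CAGGTG was in 4 of 6 (Cd79a, Fcer2a, Fcmr and Fcrla) and in 20.2% of all, and TATAAA in 2 of 6 (Fcer2a and Fcrla) and in 13.6%. The paired half-site motif of the early B cell factor EBF1 was in 0 of 6 and in 0.904% of all. No motif searched contains another, and a match describes the letters of a window, not binding. The windows also differed in CG pairs, with 23 in Pax5, 8 in Cd79a, 5 in Fcmr, 2 in Spib and 1 in Fcrla. The Fcer2a windows had 4, 3 and 3, and the median over all windows was 7.

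The receptor chains were the highest of the 9 genes. Cd79a was at 1489 FPKM in the DC sort, 59.3 in the macrophage sort and 35.8 in the Gr-1+ sort. It ranked 49 of all genes in the DC sort, and its value there was 25.1 times that in the macrophage sort and 41.6 times that in the Gr-1+ sort. Cd79b values were, in that order, 562, 41.2 and 10.8 FPKM, 13.6-fold and 51.9-fold higher in the DC sort. These were the only members above the background level in all 3 libraries. Their proteins pair 1 to 1 in the receptor, while the FPKM ratio of Cd79a to Cd79b was 2.65 in the DC sort, 1.44 in the macrophage sort and 3.31 in the Gr-1+ sort.

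The surface genes of mature B cells followed. Ms4a1 was at 228 FPKM in the DC sort, 13.3 in the macrophage sort and 8.77 in the Gr-1+ sort, and the last value lay under the background level. Fcmr was the third highest, at 451 FPKM in the DC sort against 17.6 in the macrophage sort and 7.41 in the Gr-1+ sort. Fcer2a was at 161, 6.02 and 4.97 FPKM. Both receptors for soluble antibody were above background in the DC and macrophage sorts and under it in the Gr-1+ sort. The intracellular protein gene Fcrla, at 163 FPKM in the DC sort, 4.82 in the macrophage sort and 1.36 in the Gr-1+ sort, showed the widest gap from the Gr-1+ library. That last value rested on about 5 fragments, if all came from its longest transcript, and lay under the background level.

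The kinase and the factors were lower. Blk was at 65.3 FPKM in the DC sort, 2.71 in the macrophage sort and 2.79 in the Gr-1+ sort, with both latter values under background. Spib was at 103, 4.08 and 2.30 FPKM, above background in the DC and macrophage sorts. Pax5 was the lowest of the 9, at 13.1, 0.293 and 0.793 FPKM. Its macrophage value lay below its Gr-1+ value, but both were under background and rested on about 14 fragments each. A value of 3 fragments on its longest transcript, 8004 bases, would read 0.0461 FPKM in the DC sort, 0.0615 in the macrophage sort and 0.168 in the Gr-1+ sort.

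**Figure D1:**
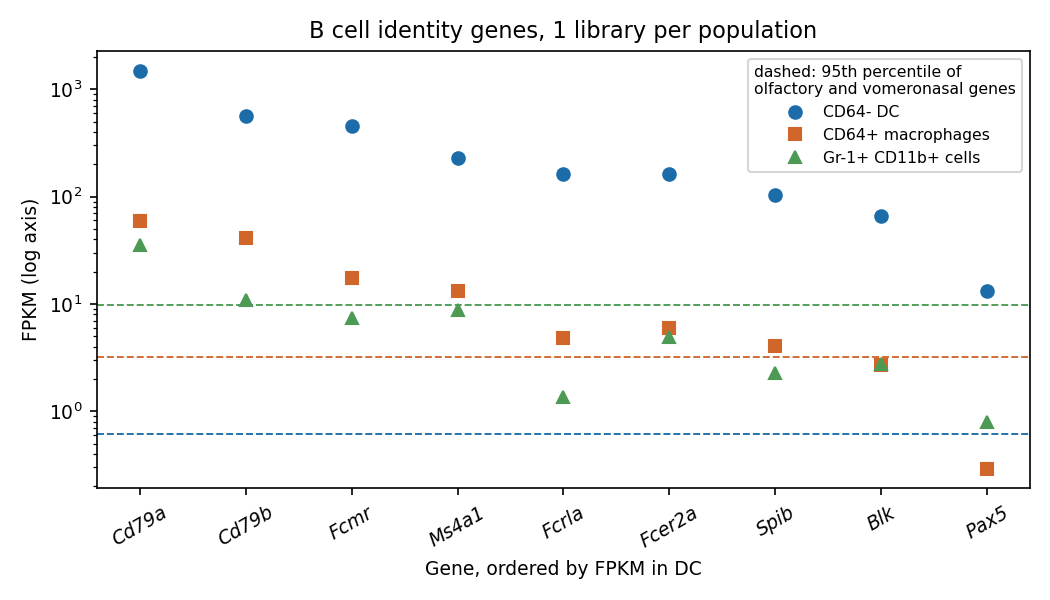
FPKM of each of the 9 genes (log axis) in the DC (circles), macrophage (squares) and Gr-1+ CD11b+ (triangles) libraries, 1 point per library, with genes ordered by their DC value. Dashed lines mark the background level of each library, and 9, 7 and 2 of the genes lie above their own library's line in the DC, macrophage and Gr-1+ sorts.

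The plot of FPKM by library shows the DC point above both others for every gene, from Cd79a at the left to Pax5 at the right. All 9 genes were called higher in the DC sort than in the macrophage sort, where the share over all genes was 1.53%, and all 9 higher than in the Gr-1+ sort, where it was 6.28%. Over all genes 1.21% passed both. In the opposite direction 0 of the 9 passed, against 2.31% of all genes higher in the macrophage sort and 3.65% higher in the Gr-1+ sort. Nothing is read from these counts, since the genes were chosen for being highest in the DC sort. In bulk RNA, more cells of a type and more RNA per cell cannot be told apart. Pax5 was the member whose call depended on the settings, and it did not pass with a pseudocount of 10 or a floor of 30 FPKM.

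The gap from the macrophage sort ran from 13.6-fold to 44.6-fold, with most genes near its middle. The DC value was 25.3 times the macrophage value at the median, and 5 of the 9 ratios lay within 10% of it. These were 24.1 for Blk (against a macrophage value under background), 25.1 for Cd79a, 25.3 for Spib, 25.7 for Fcmr and 26.8 for Fcer2a. Cd79b (13.6) and Ms4a1 (17.2) had smaller ratios, and Fcrla (33.8) and Pax5 (44.6, likewise against a value under background) larger ones. Put the other way, the macrophage library held 2.24% to 7.33% of the DC level, with a median of 3.95%. For comparison, the 15 macrophage markers stood in the DC sort at 7.72% to 27.3% of their macrophage level, with a median of 10.7%. Whether cells or RNA shared between the sorts set either share was not tested.

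Ratios to the Gr-1+ library were more spread. They ran from 16.5 for Pax5 to 119.8 for Fcrla, with a median of 41.6, and 2 of 9 lay within 10% of it. In that library 7 of the 9 values were under background, so these ratios have an uncertain denominator. As log2 differences the median was 4.36 from the macrophage sort (range 3.44 to 4.82) and 4.98 from the Gr-1+ sort (range 2.97 to 6.12). Over all 17329 genes the medians were -0.05 and -0.01.

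**Figure D2:**
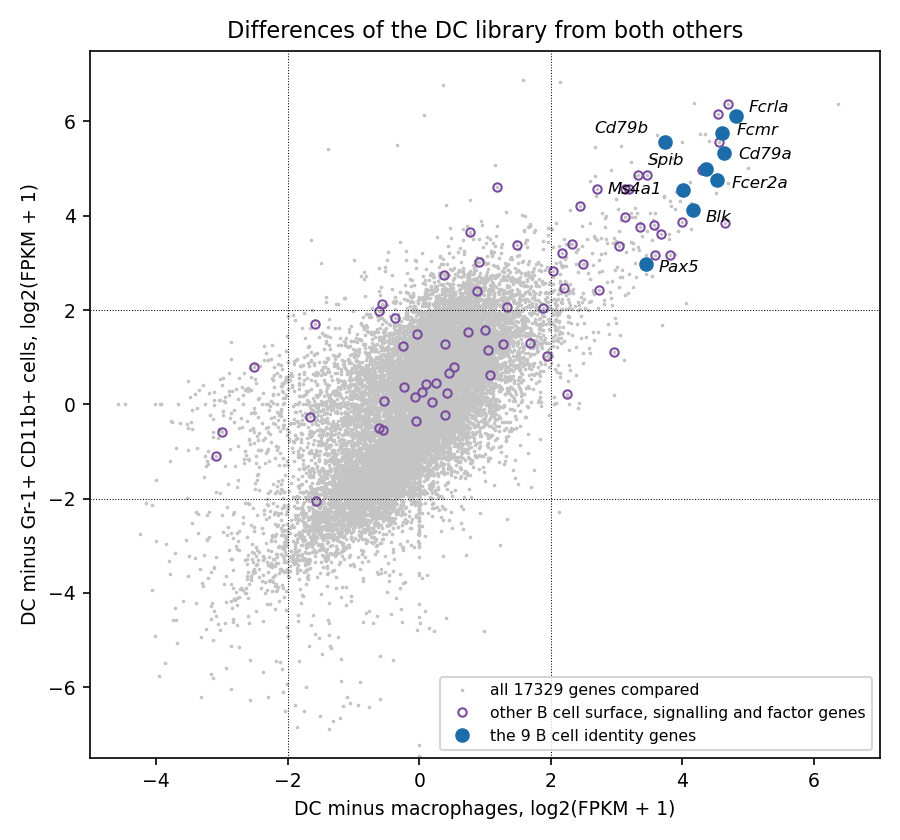
Log2(FPKM + 1) difference of the DC sort from the macrophage sort (horizontal axis) and from the Gr-1+ sort (vertical axis), 1 point per gene, with dotted lines at the size limit of 2. The 9 genes (filled) lie together at the upper right, between 3.44 and 4.82 on the horizontal axis, and 37 of the 17329 genes fall outside the axes.

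The comparison that did not enter the choice of genes was that of the macrophage sort with the Gr-1+ sort. None of the 9 genes was called, 0 higher in the macrophage sort, where the share over all genes was 3.41%, and 0 higher in the Gr-1+ sort, where it was 1.41%. The floor of 10 FPKM kept Pax5, Blk, Fcrla, Fcer2a and Spib from any call, since both their values lay under it. With no floor the count was also 0. In the Gr-1+ sort only 2 of the 9 values were above background. The median difference was 0.62, against -0.10 over all genes. With median-ratio scaling these were 0.14 and -0.53. Of the unscaled differences, that of Cd79b was the largest, 1.83, at 41.2 FPKM in the macrophage sort and 10.8 in the Gr-1+ sort. Fcrla (1.30) and Fcmr (1.14) followed. Blk (-0.03) and Pax5 (-0.47) had differences below 0. With a limit of 1 in place of 2, the 2 genes Cd79b and Fcmr passed, while Fcrla was past that limit but under the floor.

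The order of the 9 levels was nearly the same in the DC and macrophage sorts, with a Spearman rho of 0.98 over 9 genes. Between DC and the Gr-1+ sort, where only 2 of the 9 values were above background, rho was 0.87. These are descriptions across genes of 1 library each, which share transcript lengths and a preparation method. Within DC the order was Cd79a, Cd79b, Fcmr, Ms4a1, Fcrla, Fcer2a, Spib, Blk and Pax5, and the spread from first to last was 114-fold. Fcrla and Fcer2a, at 163 and 161 FPKM, are neighbours that a single library cannot rank. Together the 9 genes made up 0.485% of the FPKM sum in the DC sort, 0.0171% in the macrophage sort and 0.00868% in the Gr-1+ sort.

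Several relatives of these genes that serve myeloid cells ran the other way. In the MS4A family, Ms4a1 was highest in the DC sort, whereas Ms4a6b, Ms4a6c, Ms4a6d and Ms4a7 were called higher in the macrophage sort than in the DC sort. Ms4a7 was at 386 FPKM in the macrophage sort and 35.3 in the DC sort, and Ms4a6d at 734 and 52.6. Among Fc receptor genes, Fcrla, Fcmr, Fcer2a and Fcrl1 were the 4 of 15 called higher in the DC sort than in the macrophage sort, and 7 were higher in the macrophage sort. Fcrl1, a surface relative of Fcrla, was at 102 FPKM in the DC sort, 6.34 in the macrophage sort and 10.6 in the Gr-1+ sort. Fcrlb, a paralog of Fcrla, was instead at 1.54, 20.7 and 4.42.

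The 2 kinds of IgE receptor could not be compared whole, since of the high-affinity kind only a shared chain was above background. Fcer1g, the signalling chain shared by activating Fc receptors, was at 670 FPKM in the DC sort, 4597 in the macrophage sort and 4487 in the Gr-1+ sort. Fcer1a, the ligand-binding chain of the high-affinity IgE receptor, was at 0.543, 1.61 and 3.88 FPKM, under background throughout. Of these ligand-binding chains, Fcer2a alone was above background in the DC sort. Fcgr2b, the inhibitory IgG receptor that B cells and macrophages share, was at 170, 971 and 97.5 FPKM.

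The kinase and factor families also held genes whose values were higher in the other sorts, though not all by the size rule. Lyn, the Src family kinase common to B cells and myeloid cells, was at 124 FPKM in the DC sort, 191 in the macrophage sort and 177 in the Gr-1+ sort. Lyn passed in neither comparison with the DC sort. The ratio of Lyn to Blk was 1.90 in the DC sort, and no ratio is given for the others, where Blk was under background. Fgr, a myeloid kinase, was at 43.2, 130 and 275 FPKM and passed against the Gr-1+ sort but not against the macrophage sort. Lck, the kinase of T cells and some B cells, was at 40.6, 5.36 and 9.11 FPKM and was, with Blk, called higher in the DC sort than in the macrophage sort. Spi1, which encodes PU.1, was at 203 FPKM in the DC sort, 602 in the macrophage sort and 847 in the Gr-1+ sort. It too passed against the Gr-1+ sort, though not with equal sums, and did not pass against the macrophage sort. Its ratio to Spib was 1.96 in the DC sort and 148 in the macrophage sort, and in the Gr-1+ sort Spib was under background. Spic, the factor of iron-recycling macrophages, was at 3.04, 32.6 and 5.63 FPKM.

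**Figure D3:**
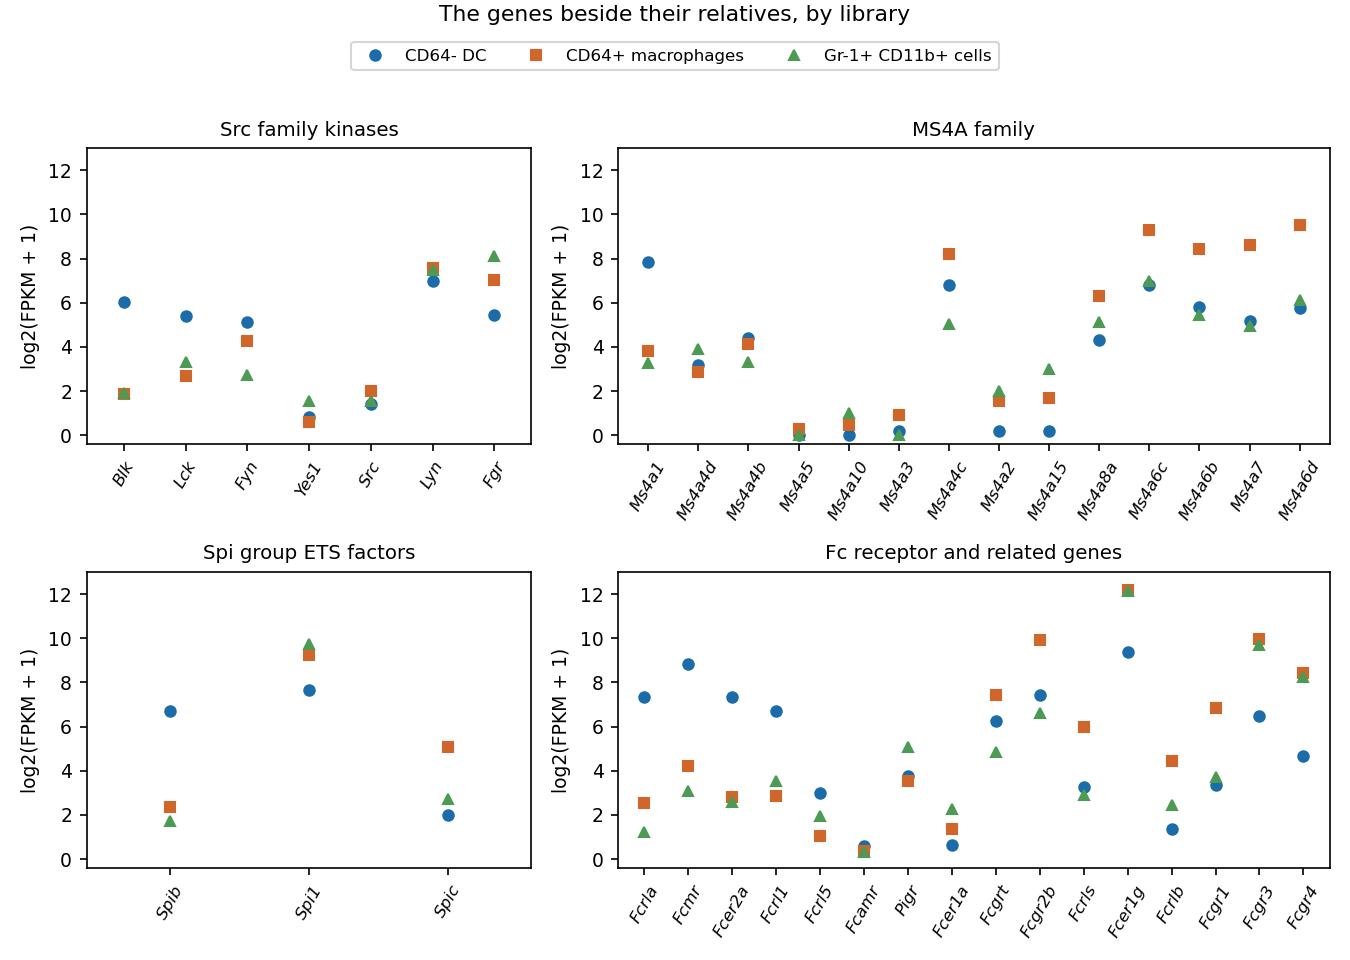
Log2(FPKM + 1) of the genes and their relatives in the DC sort (circles), macrophages (squares) and the Gr-1+ sort (triangles), 1 point per library, in 4 gene families ordered by the DC to macrophage difference. Blk, Ms4a1, Spib and Fcrla stand at the left of their panels, where the DC point is highest, and Fgr, Ms4a6d, Spic and Fcgr4 at the right, where it is lowest.

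Other B cell genes were taken from lists written with earlier results of these data known. Of 27 co-receptor and surface genes, 15 were called higher in the DC sort than in the macrophage sort and 3 lower, with a median difference of 2.44. Ly6d, a marker of B cell commitment, was at 1604 FPKM in the DC sort, 68.1 in the macrophage sort and 21.5 in the Gr-1+ sort. Cxcr5, which guides B cells to follicles, was at 168, 5.70 and 10.7 FPKM. Cd81 and Cd40, which macrophages also express, did not pass against the macrophage sort. They were at 221, 328 and 49.6 FPKM and at 78.4, 238 and 23.5 FPKM.

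Most signalling genes below the receptor did not pass the size rule. Of 21, 5 were called higher in the DC sort than in the macrophage sort and 0 lower, with a median difference of 0.52. The 5 included the adaptors Blnk (187 FPKM in the DC sort, 28.0 in the macrophage sort, 6.91 in the Gr-1+ sort) and Bank1 (123, 11.4 and 3.25). Rasgrp3, an activator of Ras, was at 46.9, 1.99 and 2.30 FPKM. Syk and Btk, kinases that myeloid cells use too, were at 92.6 and 55.4 FPKM in the DC sort and 70.2 and 27.2 in the macrophage sort. The phosphatase gene Ptpn6 was at 336, 326 and 282 FPKM.

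Among 20 factors of the B lineage, 7 were called higher in the DC sort than in the macrophage sort and 0 lower, with a median difference of 1.41. Pou2af1, the octamer co-activator of B cells, was at 158 FPKM in the DC sort, 5.76 in the macrophage sort and 2.35 in the Gr-1+ sort. Its value was higher than that of Pax5 and Spib. Ebf1, which acts with PAX5 to fix B cell identity, was at 27.4, 1.37 and 2.14 FPKM. Foxo1 was at 57.3, 5.70 and 2.73 FPKM, and Ikzf3 at 42.8, 3.30 and 2.23. The call of higher in the DC sort than in the Gr-1+ sort held for 11 of the 20 and for 7 with median-ratio scaling.

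Stage markers differed. Of 9 precursor genes at 1 FPKM or more in any library, Vpreb3 was called higher in the DC sort than in the macrophage sort, at 192, 9.02 and 5.08 FPKM. It is related to the surrogate light chain genes but is also used outside the precursor stage. Rag1 and Igll1, which mark precursors, were listed at 0 in the DC sort, and Rag2 was at 0.242 FPKM. Of 7 germinal centre genes, 1 was called higher in the DC sort than in the macrophage sort, Rgs13, at 16.4, 1.25 and 0.614 FPKM. Of 13 plasma cell genes, 8 were called higher in the DC sort than in the macrophage sort and 0 lower, a count that moved to 10 (equal sums) or 6 (median-ratio scaling). Jchain, which joins IgA and IgM units, was at 18847, 982 and 352 FPKM, so its DC to macrophage ratio was 19.2.

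Some genes of class II presentation were also higher in the DC sort. H2-Oa and H2-Ob encode the inhibitor of peptide loading found in B cells, and were at 271 and 227 FPKM in the DC sort against 41.7 and 17.7 in the macrophage sort. H2-DMb2 was at 890 and 139 FPKM, and H2-Eb2 at 18.2 and 1.20. These were the 4 of 7 genes called higher in the DC sort than in the macrophage sort, with 0 lower. The other 3 did not pass. The transactivator gene Ciita was at 66.4 and 28.8 FPKM, whereas H2-DMa and H2-DMb1, chains of the peptide exchange factor, had higher values in the macrophage sort. H2-DMa was at 521 FPKM in the DC sort and 915 in the macrophage sort, and H2-DMb1 at 585 and 1557.

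**Figure D4:**
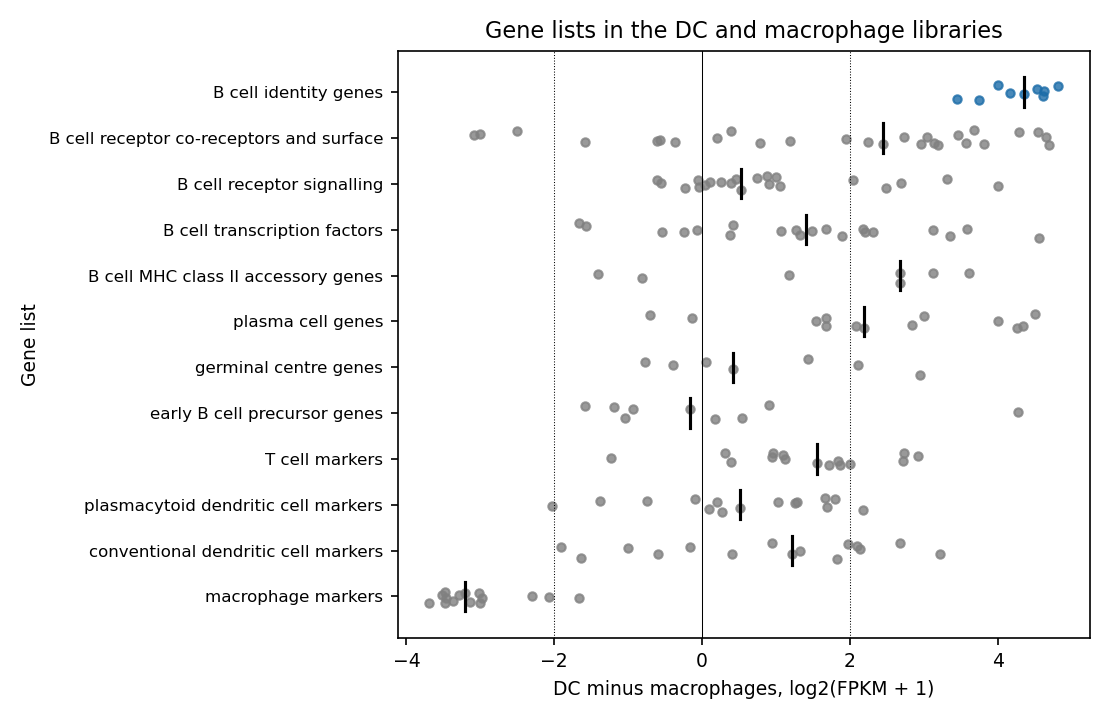
Log2(FPKM + 1) difference of the DC sort from the macrophage sort for each gene at 1 FPKM or more in 12 lists, 1 point per gene, with vertical bars at the list medians and dotted lines at the size limit of 2. The 9 genes have the highest median of the lists drawn, 4.36, and the macrophage markers the lowest, -3.21; points are spread vertically for legibility.

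Markers of other cells that could carry some of these genes were also measured. Spib is used by plasmacytoid dendritic cells, of whose 15 markers 0 were called higher in the DC sort than in the macrophage sort and 1, Zeb2, lower, or 2 and 0 with equal sums. By value, 11 of the 15 were highest in the DC sort, and 4 were lower there than in the macrophage sort. Cox6a2, at 7.93, 0.983 and 0.886 FPKM, passed the limit of 2 but not the floor of 10 FPKM. Their summed level was 490 FPKM in the DC sort, 483 in the macrophage sort and 339 in the Gr-1+ sort, much of it from Bst2 (236, 196 and 54.3) and Irf7 (125, 212 and 219.9). Without Irf7 it was 364, 271 and 119. Siglech, a defining marker, was at 14.7, 3.87 and 4.87. M cells use Spib too, and Gp2, their defining receptor, was at 1.44, 1.82 and 2.90 FPKM. The 15 M cell and epithelial markers summed to 901, 1158 and 3072 FPKM, and to 793, 492 and 1655 without Tnfaip2, which has the highest summed level of them. Values of 12 of the 15 were higher in the DC sort than in the macrophage sort, such as Krt8 at 156 and 101 FPKM and Car1 at 317 and 187, though 0 passed the size rule. The part of either cell type in the Spib value was not tested.

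For Fcer2a and Cr2, which follicular dendritic cells can express, 11 follicular dendritic and stromal markers summed to 224, 91.3 and 139.8 FPKM. Cr2, the complement receptor on B cells and follicular dendritic cells, was at 37.8, 2.26 and 1.78 FPKM and was the 1 gene of that list called higher in the DC sort than in the macrophage sort. Cxcl13, the follicular chemokine, was at 11.6, 8.30 and 6.65. Their part in the Fcer2a value was not tested.

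Markers of other lymphocytes had a lower summed level in the DC sort than the 9 genes. The 9 were chosen for being highest there, so nothing is read from this. By value, 15 of 16 T cell markers were higher in the DC sort than in the macrophage sort, and 1 was lower. The same held for 9 of 10 NK and innate lymphoid markers, with 1 lower. The 16 T cell markers summed to 326 FPKM in the DC sort, 102 in the macrophage sort and 55.2 in the Gr-1+ sort. Without Cd2, which has the highest summed level of them, the sums were 164, 81.5 and 50.9. Of 15 at 1 FPKM or more, 4 were called higher in the DC sort than in the macrophage sort, Cd2, Lck, Cd28 and Tcf7. Cd2 was at 163, 20.7 and 4.24 FPKM and Cd28 at 28.2, 3.41 and 3.17, whereas the CD3 chain genes Cd3d and Cd3g were at 6.71 and 15.8 in the DC sort. Of 10 NK and innate lymphoid markers, 1 was called, Klrd1, at 65.2, 10.3 and 4.84 FPKM. The 9 genes summed to 3237 FPKM in the DC sort, and Cd79a and Cd79b stood above every T cell marker there. Cd2 stood above Spib, Blk and Pax5 and level with Fcrla and Fcer2a. Klrd1, Lck, Cd28, Cd4, Cd3g and Gzma stood above Pax5. The part of these cells in the values of the 9 genes was not tested.

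The genes most like the 9 were found by the distance between pairs of log2 differences, DC from the macrophage sort and DC from the Gr-1+ sort, to the median pair of the 9. Over 3 libraries and 6041 genes at 10 FPKM or more in the DC sort, the nearest was Ccr6, a chemokine receptor of B cells and T cell subsets, at a distance of 0.0700. Its values were 92.1, 3.75 and 1.95 FPKM in the DC, macrophage and Gr-1+ sorts. Vpreb3 was next (0.0905), then Srpk3 (0.366), Rnu12 (0.441), Ccr10 (0.513) and Mapk11 (0.533). Gimap6, B3gnt7, Dusp4 and Pou2af1 completed the first 10, at distances of 0.567 to 0.620. Rnu12, a short nuclear RNA, was at 24.9 FPKM in the DC sort and listed at 0 in the other libraries.

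Single genes had their own neighbours. Spib lay at the median pair itself and its nearest gene was Ccr6. Pou2af1 was nearest to both Cd79a (0.241) and Fcmr (0.185), H2-Ob to Cd79b (0.184) and Ly6d to Fcrla (0.283). B3gnt7 was nearest to Ms4a1 (0.0441), Scd1 to Blk (0.137) and Cryaa to Pax5 (0.0193). For Fcer2a it was Rnu12 (0.178). Pax5 lay farthest from the median pair, at 2.21, with 92 other genes nearer. With only 3 libraries, such likeness rests on 2 numbers per gene.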

How the data were processed

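Total RNA of sorted colonic cells was converted to cDNA (SMART-Seq HT) and libraries (Nextera), per the labels' protocols. Each library has 1 table of gene-level FPKM values, deposited by the authors. Per the submitters' processing notes, which give neither role nor order, the tools were Cufflinks 2.2.1, TopHat2 2.0.13, SAMtools 0.1.19 and Bowtie2 2.2.3, and the build was mm10. Annotation and filters are not given in the sources used here. Since FPKM scales to the library total, abundant transcripts depress the rest.

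The deposited values were used unscaled, with a pseudocount of 1. Genes reaching 1 FPKM anywhere were compared. The 9 genes and the 21 lists (257 genes, 254 in the tables) were chosen with earlier results of these data known. Named genes were all 9, and from each list up to 8 past the size rule against DC and up to 4 others, by DC level, the 10 nearest genes and the nearest gene to each of the 9. Outside this rule, Cadm1, Xcr1, Clec9a, Syk, Btk, Ebf1, Rag1, Rag2, Igll1, Cox6a2, Gp2 and Cxcl13 were named after their values were seen. Some genes covered by it are not reported here or drawn in the family plot. GENCODE M21 (GRCm38) gave coordinates and lengths; immunoglobulin segments were not analysed here. Calls were tested on simulated data.

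Depth came from the steps between low values of 2605 single-transcript genes over 800 bases. A fragment on 1 kb was worth 0.123 FPKM (DC), 0.164 (macrophage) and 0.448 (Gr-1+). Whole multiples, to within 0.2, made up 71.0%, 59.8% and 62.7% of low values, where even spacing gives 40% for a step fixed beforehand. The step was chosen to make this share highest, so its excess over 40% is not a test. Fragment numbers are thus approximate and cover counting error only. Alternatives were pseudocounts of 0.1 and 10, no floor or 30 FPKM, limits of 1 and 3, scaling to equal sums (with and without Jchain), median ratios or 75th percentiles, no filter on low values and subtraction of the background level. The calculations used Python 3.11.15, NumPy 2.4.6, pandas 2.3.3, SciPy 1.17.1 and matplotlib 3.10.9.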

Additional observations from a re-analysis of the deposited data

How the results depend on the processing

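All 9 genes were higher in the DC sort than in both other libraries under every alternative, and the calls changed for Pax5 alone: 8 of 9 were called in both comparisons with a pseudocount of 10 or a floor of 30 FPKM, and 8 against the Gr-1+ sort with a limit of 3. The median difference from macrophages, 4.36, was 3.42 with a pseudocount of 10, 4.72 with equal sums, 4.76 with equal sums without Jchain and 4.88 with the background level subtracted. The median difference from the Gr-1+ sort, 4.98, was 3.67 with a pseudocount of 10 and 7.34 with the background level subtracted. Between macrophages and the Gr-1+ sort, 0 genes passed, 2 (Cd79b and Fcmr) with a limit of 1 and 3 (Ms4a1, Cd79b and Fcmr) with the background level subtracted. The median difference between these sorts, 0.62, was 0.14 with median-ratio scaling, 0.13 with equal 75th percentiles and 1.37 with the background level subtracted. The lower limit and the pseudocount change the values by construction, and elsewhere the cause was not tested.

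The median of all genes shifted by 0.25 (DC minus macrophages) and 0.28 (DC minus the Gr-1+ sort) with equal sums, and by -0.12 and -0.62 with median-ratio scaling. The share of all genes called higher in the DC sort than in macrophages, 1.53%, was then 2.42% and 1.13%, and the share called lower, 2.31%, was 1.54% and 2.50%. Against the Gr-1+ sort the share higher in DC, 6.28%, was 10.6% and 1.96%, and the share lower, 3.65%, was 2.87% and 6.24%. With the background level subtracted, the shares higher in DC were 4.95% against the macrophage sort and 30.3% against the Gr-1+ sort. In the class II list, 7 of 7 genes were called higher in the DC sort than in the Gr-1+ sort, and 4 with median-ratio scaling. No paired analysis was possible because each population had 1 library. No replicate could be left out. The shallow Gr-1+ library limits every ratio to it.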
